A study of Mus musculus with 4 samples.

Results

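The genes described here are 8 that encode enzymes and partner subunits which write or remove marks on lysine 27 of histone H3 (H3K27), namely Ezh1, Ezh2, Eed, Suz12, Jarid2, Kdm6b, Ep300 and Crebbp, together with Bmi1 of the Polycomb group and Kmt2a of the Trithorax group. These 10 genes were taken by name, with earlier results of these data known, and make up 10 of 18602 protein-coding genes that could be placed on the mm9 genome, out of 21631 in the RefSeq table for chromosomes 1 to 19 and X. A peak was given to a gene when it overlapped the gene body or the 10 kb on either side of it, a span called the window below.

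The data come from chromatin immunoprecipitation with sequencing (ChIP-seq) in cultured leukaemia cells of the pre-B lineage from C57BL/6J mice. All libraries share 1 background: overexpression of BCR-ABL1, a constitutively active kinase fusion of human leukaemia, in p19 null cells. There was 1 library for each of 3 antibodies, against PHF6, acetylated H3K27 (H3K27ac) and trimethylated H3K27 (H3K27me3), and 1 input library that is not analysed here. With 1 library per antibody no value below has a replicate error, no test was possible, and no order of values can be separated from library-to-library spread. The sources used here do not say whether the cells were 1 clone.

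As background, Polycomb repressive complex 2 (PRC2) holds EZH2 or EZH1 as its catalytic subunit, with EED and SUZ12 as core partners and JARID2 as an accessory subunit, and it methylates H3K27 at repressed genes. KDM6B removes that methyl mark, while the related acetyltransferases p300 (Ep300) and CBP (Crebbp) acetylate the same lysine at active promoters and enhancers. BMI1 is a subunit of PRC1, the complex that acts with PRC2, and KMT2A methylates lysine 4 of H3 and is a frequent partner in leukaemia translocations. PHF6 is a nuclear protein with PHD-type fingers whose gene is mutated in some leukaemias.

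At every gene of the set, a PHF6 peak and an H3K27ac peak lay at the start wherever a start could be placed. A signal shared with input was not tested at these starts. Of the 9 genes with a start in the RefSeq promoter table, 9 had a PHF6 peak within 1 kb of it, beside 68.1% of 15662 genes with a placed start. All 9 had an H3K27ac peak there, beside 62.4% of genes. Both lists met at all 9 starts, as they did at 56.6% of genes. All 9 of those acetylation peaks had a summit height of 200 or more, a level reached at the start of 38.6% of genes. Of these 9 genes only Bmi1 had an H3K27me3 peak at its start, which 3.59% of genes had. Summit height is the pileup that the authors deposited for each summit, and it is ranked here only within 1 list.

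Gene positions came from GRCm38 and were moved to mm9 by the local offset at which the most annotated starts met a tall H3K27ac summit, so acetylation at starts helped to place the genes. The offset of each gene rested on 6 starts (Eed) to 46 starts (Kdm6b), and the next best offset drew at most 6. With each gene's own start left out of the vote, every one of the 10 genes stayed within 148 bp of that position. Candidate offsets were still proposed from all starts, so this check is only partly independent of the gene's own start. Fewer genes were placed in it. Any H3K27ac peak lay at 9681 of 15565 starts (62.2%), in place of 9778 of 15662. A tall one lay at 5941 (38.2%), in place of 6038. Other offset settings moved Ep300 by 254 bp (starts within 1 Mb) and Bmi1 by 398 bp (PHF6 summits of 35 or more). The offsets were also centred on H3K27ac summits. Distances from a start given below, and whether a start falls inside a peak, are no finer than such shifts. Genes in regions with few tall H3K27ac summits could not be placed, so the shares over all genes leave out acetylation-poor regions. Sequencing depth is unknown, since the lists hold no read totals.

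The cell identity on the labels was checked against marker genes. H3K27ac lay at the start of 5 of 6 pre-B genes with a placed start, with heights of 297 to 329 at Ebf1, Pax5, Cd79a, Vpreb1 and Igll1, and was missing at Rag1. Rag1, a recombinase gene of lymphocyte precursors, had no peak of any list in its window. None of 6 genes of other lineages (Cd3e, Cd8a, Mpo, Gata1, Alb and Neurod1) had an H3K27ac peak in its window. All 5 placed developmental genes (Hoxa9, Hoxd13, Pax6, Gata4 and Nkx2-5) had H3K27me3 in the window, with no summit above 25. So did 5 of 8 pre-B genes, including Ebf1 and Cd79b, each with a summit of 42. All 5 developmental genes also had H3K27ac in the window. Of the 4 with a placed start, 3 had H3K27ac there, at heights of 18 to 21, and 2 had H3K27me3. Over all genes, H3K27ac lay at 62.4% of placed starts and in 74.5% of windows, and H3K27me3 in 21.4% of windows.

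The promoter stretches below show what sequence underlies these starts: Ezh2, Eed and Suz12 are printed because all of their peaks lay at the start, Ezh1 for comparison with its paralog Ezh2, Ep300 because it had the tallest start peaks of the set, and Bmi1 because all 3 marks met there. Each run is the 250 bases upstream of the RefSeq start, read 5′ to 3′ on the gene's strand from the GRCm38.p6 table. Capitals mark matches, on either strand, to the short motifs GGGCGG (Sp/KLF), CCAAT (NF-Y), CCGGAA (ETS), TGCGCA (NRF1 core), CACGTG (E-box), TGACGT (part of the CRE), TTCNNNGAA (STAT factors) and TATAAA, the core promoter box. In GRCm38.p6 the stretches are chr11:101226464-101226713 for Ezh1, chr6:47595031-47595280 for Ezh2 and chr7:89980977-89981226 for Eed, all on the minus strand. Those on the plus strand are chr11:79992856-79993105 for Suz12, chr15:81585964-81586213 for Ep300 and chr2:18676768-18677017 for Bmi1.
Ezh1: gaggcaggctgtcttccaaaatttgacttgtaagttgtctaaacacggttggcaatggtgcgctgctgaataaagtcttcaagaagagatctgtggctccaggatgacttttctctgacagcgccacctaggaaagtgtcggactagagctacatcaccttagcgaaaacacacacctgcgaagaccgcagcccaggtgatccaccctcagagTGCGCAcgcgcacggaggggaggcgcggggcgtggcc
Ezh2: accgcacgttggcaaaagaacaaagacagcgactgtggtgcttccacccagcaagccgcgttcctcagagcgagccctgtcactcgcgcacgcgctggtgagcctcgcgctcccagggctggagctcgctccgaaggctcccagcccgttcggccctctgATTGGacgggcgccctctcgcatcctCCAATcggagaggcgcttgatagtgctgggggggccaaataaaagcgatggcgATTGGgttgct
Eed: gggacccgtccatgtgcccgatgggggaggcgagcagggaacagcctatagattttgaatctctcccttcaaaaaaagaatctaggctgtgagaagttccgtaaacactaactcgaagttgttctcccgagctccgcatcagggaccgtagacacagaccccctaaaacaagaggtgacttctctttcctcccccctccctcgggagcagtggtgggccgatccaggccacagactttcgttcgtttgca
Suz12: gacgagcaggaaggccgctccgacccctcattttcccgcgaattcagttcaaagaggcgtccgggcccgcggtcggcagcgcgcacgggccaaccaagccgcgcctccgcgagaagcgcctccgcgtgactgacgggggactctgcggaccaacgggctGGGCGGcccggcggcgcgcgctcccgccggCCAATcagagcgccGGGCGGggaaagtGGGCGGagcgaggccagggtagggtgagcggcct
Ep300: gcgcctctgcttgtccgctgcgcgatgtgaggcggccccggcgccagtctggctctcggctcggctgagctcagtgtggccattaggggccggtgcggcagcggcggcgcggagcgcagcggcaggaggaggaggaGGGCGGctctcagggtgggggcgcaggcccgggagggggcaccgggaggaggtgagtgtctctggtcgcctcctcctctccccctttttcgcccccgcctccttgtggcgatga
Bmi1: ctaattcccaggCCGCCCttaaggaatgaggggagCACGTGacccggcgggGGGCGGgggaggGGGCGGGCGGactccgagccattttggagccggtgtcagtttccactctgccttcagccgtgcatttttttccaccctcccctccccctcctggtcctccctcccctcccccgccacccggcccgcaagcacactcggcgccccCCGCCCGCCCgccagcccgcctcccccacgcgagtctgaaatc

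These stretches are rich in CpG. Over the 10 starts of the 9 genes (Jarid2 has 2), the 250 bases held 12 to 44 CpG dinucleotides with a median of 23, where all 32851 stretches in the table had a median of 6 and an upper quartile of 16. Eed had the fewest and Crebbp the most. G+C content ran from 54.4% at Eed to 84.0% at Crebbp with a median of 68.8%, beside a median of 52.4% over all stretches. The Sp/KLF hexamer GGGCGG occurred at 6 of the 9 genes (Suz12, Jarid2, Ep300, Crebbp, Bmi1 and Kmt2a), and 32.7% of all stretches hold it. Bmi1 had 6 such matches, and neighbouring ones overlap each other 183 to 182 and 39 to 38 bases before the start, as both matches at Crebbp do.

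Other motifs were rarer among the genes. CCAAT was present at 3 genes, beside 33.8% of all stretches, and Ezh2 alone held 3 copies, the nearest 11 bases before the start. CCGGAA was found at Kmt2a and at the second start of Jarid2 (3952 of all 32851 stretches hold it), TGCGCA at Ezh1 (6.43%), CACGTG at Bmi1 (6.02%) and TATAAA at the second start of Jarid2 (12.4%). The CRE part (6.47%) and the STAT motif (7.02%) had no match in any of these stretches. A match describes letters in the window and says nothing of a bound factor.

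**Figure D1:**
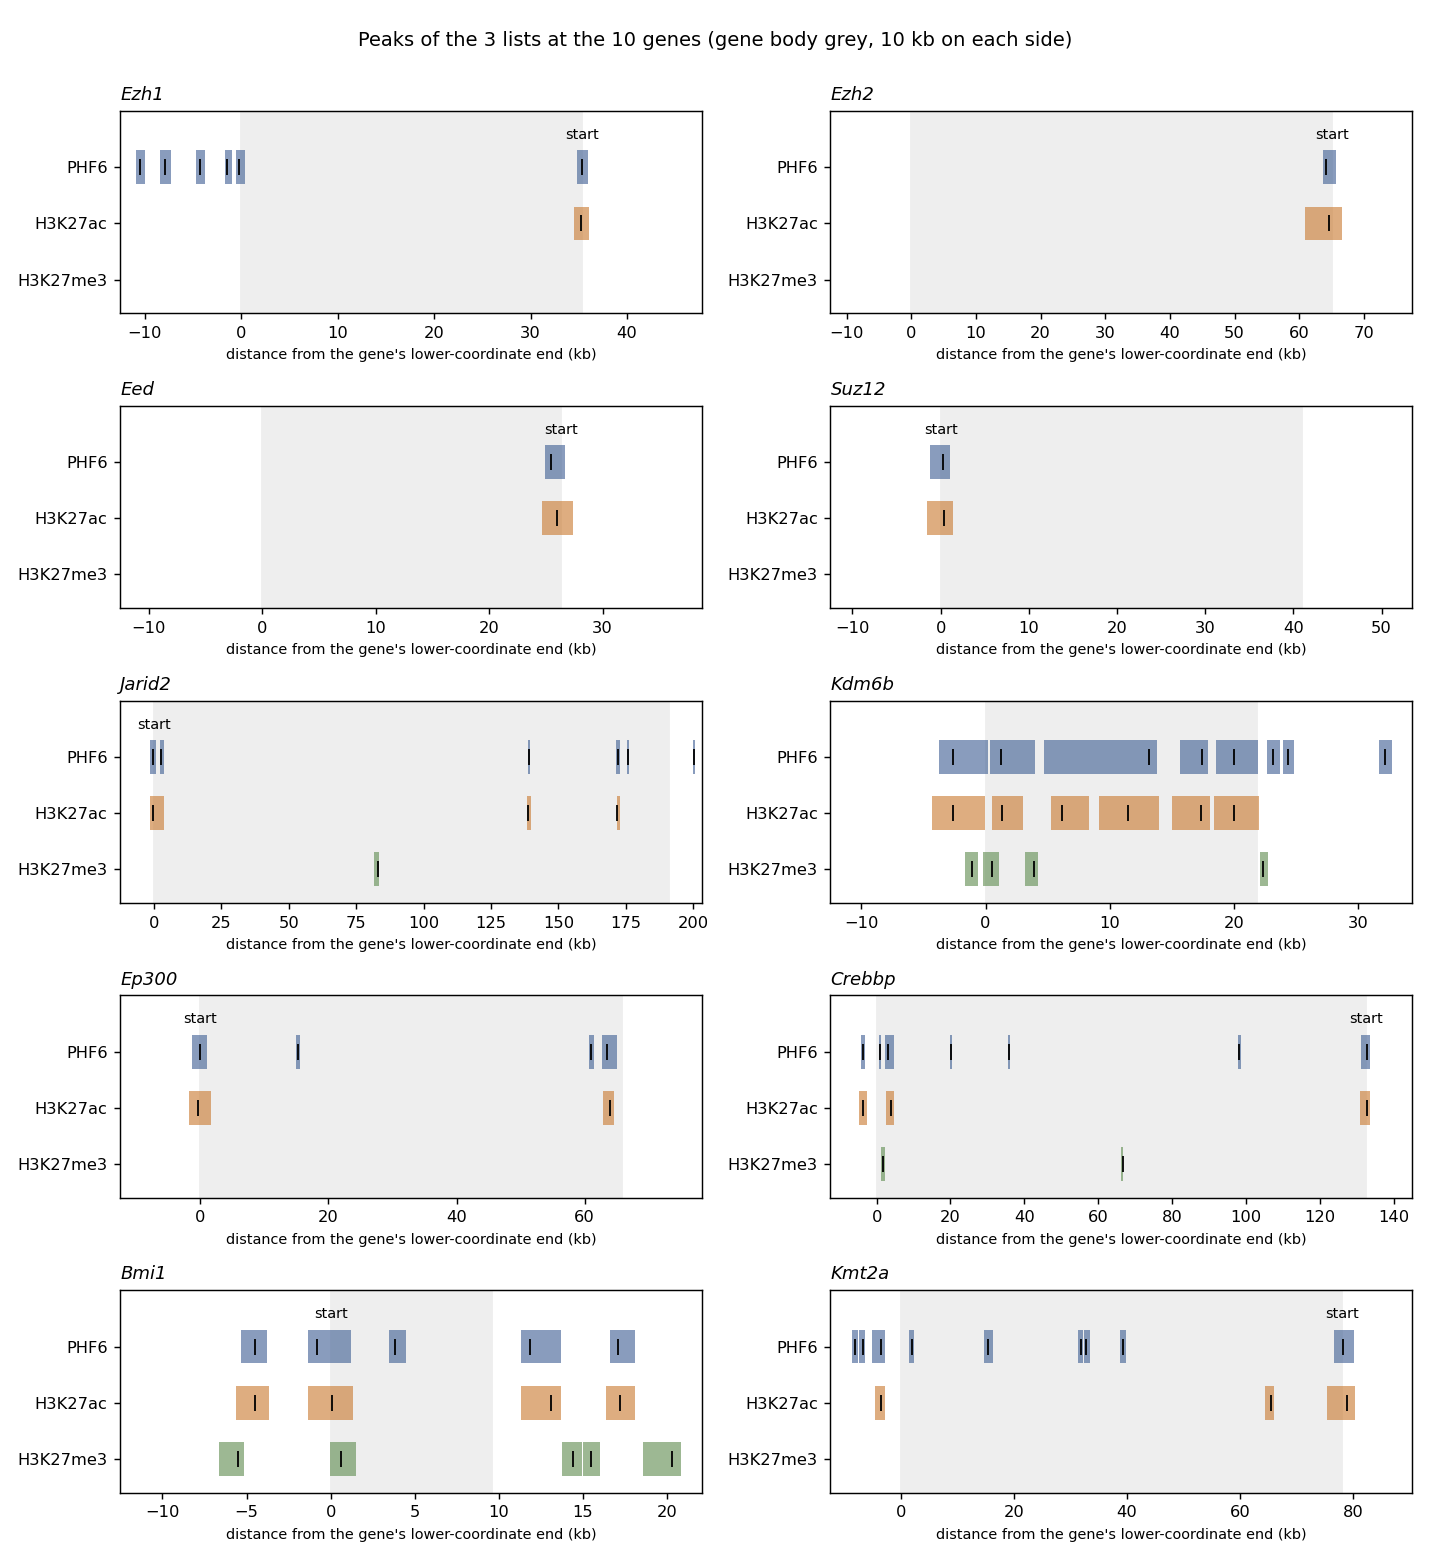
Peaks at the 10 genes. In each panel the horizontal axis is the distance in kb from the end of the gene with the lower coordinate, grey shading is the gene body, boxes are peaks of the PHF6, H3K27ac and H3K27me3 lists, and black ticks are their summits. "start" marks the RefSeq start where one was placed. Ezh2, Eed and Suz12 have 1 PHF6 and 1 H3K27ac peak each, both at the start, while Kdm6b and Bmi1 hold peaks of all 3 lists side by side.

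Over the whole windows the set held 48 PHF6 peaks at 10 genes, 25 H3K27ac peaks at 10 genes and 12 H3K27me3 peaks at 4 genes. Among all placed genes 83.8% had a PHF6 peak in the window, 74.5% an H3K27ac peak and 21.4% an H3K27me3 peak. The windows of the set were longer, with a median of 73.0 kb against 37.1 kb for all genes. Per 10 kb of window the set had a median of 0.46 PHF6 peaks (all genes 0.51) and 0.21 H3K27ac peaks (all genes 0.29). By length the set was therefore not richer in peaks than the median gene, and it stood above that median in the height at the start. The median start height was 325 for H3K27ac against 47.5 over all genes, or 252 over genes with a start peak. For PHF6 it was 43 against 27, or 33 over genes with a start peak.

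**Figure D2:**
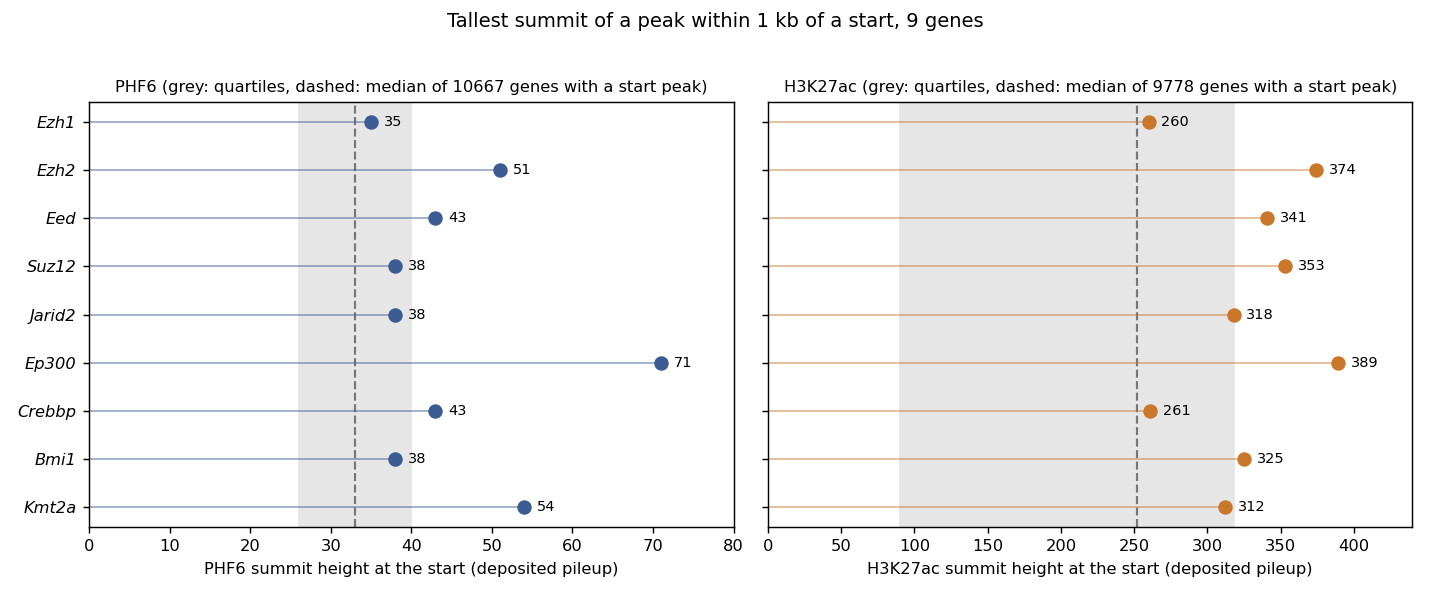
Tallest summit within 1 kb of the start for the 9 genes with a placed start, PHF6 on the left and H3K27ac on the right, in deposited pileup units. Grey bands are the quartiles, and dashed lines the median, of genes with a start peak in that list (10667 for PHF6 and 9778 for H3K27ac). Every gene of the set lies to the right of both dashed lines, with Ep300 farthest right in both panels.

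The start summits differed among the genes of the set with a placed start. The highest height in each of the 3 lists is 400, and whether heights are capped there was not tested. H3K27ac height was 389 at Ep300, 374 at Ezh2, 353 at Suz12, 341 at Eed, 325 at Bmi1, 318 at Jarid2, 312 at Kmt2a, 261 at Crebbp and 260 at Ezh1. In percentiles of the 15662 genes with a start these run from 100.0 (rounded) at Ep300 to 70.2 at Ezh1, ties counted in equal parts above and below. PHF6 height was 71 at Ep300, 54 at Kmt2a, 51 at Ezh2, 43 at Eed and Crebbp, 38 at Suz12, Jarid2 and Bmi1, and 35 at Ezh1. The percentiles run from 99.7 at Ep300 to 71.9 at Ezh1. Ep300 was highest and Ezh1 lowest on both lists, while Kmt2a ranked second for PHF6 and seventh for H3K27ac.

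PHF6 and H3K27ac summits at one start lay 55 bp apart at Jarid2 and 897 bp apart at Bmi1, with a median of 212 bp over the 9 genes. All 10 placed starts fell inside a PHF6 peak and inside an H3K27ac peak. The start of Bmi1 was also inside an H3K27me3 peak, and the other 9 starts were not.

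Ezh2, Eed and Suz12, which encode the catalytic subunit and both core partners of PRC2, had the simplest pattern. Each had 1 PHF6 peak and 1 H3K27ac peak in its window, both at the start, and no H3K27me3 peak. At Ezh2 the PHF6 peak (chr6:47543774-47545813 in mm9, height 51) lay within a 5737 bp H3K27ac peak (chr6:47541035-47546771, height 374). That acetylation peak was the widest start peak of the set, at percentile 98.4 of start widths, and it also covers the start of F830010H11Rik, so the signal cannot be assigned to 1 of the 2 genes. The windows of Eed and Suz12 hold no other protein-coding gene.

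At Eed the PHF6 peak (chr7:97128230-97130023, height 43) had its summit 863 bp downstream of the start, inside an H3K27ac peak of 2719 bp with a height of 341. At Suz12 the PHF6 peak (chr11:79805584-79807797, height 38) had its summit 236 bp downstream, and the H3K27ac peak there was 2956 bp wide with a height of 353. The summits of both lists lay downstream of the start at all of Ezh2, Eed and Suz12.

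Ezh1, the alternative catalytic subunit, had the shortest summits among the placed starts of the set and a second cluster of PHF6 peaks. Its start held a PHF6 peak (chr11:101087067-101088221, height 35) with its summit 10 bp from the start as placed. Other windows for the offset moved this gene by up to 24 bp. The start also held an H3K27ac peak with a height of 260 and a width of 1547 bp, the narrowest H3K27ac start peak of the set. Past the other end of the gene, 35.6 to 45.8 kb downstream of the start, 5 further PHF6 peaks had heights of 28, 24, 16, 17 and 15. None of these 5 overlapped H3K27ac, and 4 had their summits in the neighbouring gene Cntnap1. Only 1 of the 5 had a deposited score of 100 or more (MACS writes the score as 10 times the negative log10 of the p-value), so the count at Ezh1 falls from 6 to 2 at that score.

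Jarid2, whose product helps recruit PRC2, had peaks spread over a 210.9 kb window. Its start lay in a 5396 bp H3K27ac peak (chr13:44824558-44829953, height 318) that also held 2 PHF6 peaks, of heights 38 and 32. The tallest PHF6 summit of the whole set was not at a start: a peak at chr13:44964696-44965741, inside the gene and 139 kb downstream, reached 137. It overlapped an H3K27ac peak of height 78. Only 65 peaks of the 77749 in the PHF6 list were that tall or taller, 60 of them on H3K27ac and 13 on H3K27me3. The input library was not analysed here, so a signal shared with input was not tested.

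Farther into Jarid2, a PHF6 peak of height 31 met an H3K27ac peak of height 18 at 171 kb, and a PHF6 peak of height 22 inside the gene had no acetylation. A PHF6 peak of height 23, also without acetylation, lay 9.51 kb past the upper end with its summit in the neighbour Dtnbp1. The H3K27me3 peak of Jarid2 (chr13:44907545-44909525, height 23) was inside the gene, 82.9 kb from its lower end. It overlapped neither PHF6 nor H3K27ac, and the nearest H3K27ac edge was 55023 bp away.

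Kdm6b, the H3K27 demethylase gene, carried the densest acetylation of the set. Its 41.9 kb window held 8 PHF6 peaks, 6 H3K27ac peaks and 4 H3K27me3 peaks. H3K27ac peaks covered 21.4 kb and PHF6 peaks 24.5 kb of that window. Per 10 kb these are 1.91 PHF6 peaks (percentile 82.6 of placed genes), 1.43 H3K27ac peaks (92.5) and 0.96 H3K27me3 peaks (99.0). The window also holds parts of Cyb5d1, Naa38, Tmem88 and Dnah2, and positions are given from the ends of the gene.

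From the lower to the upper end, the H3K27ac heights at Kdm6b were 352, 24, 27, 287, 154 and 200. The peak of 352 had its summit in Naa38, 2.62 kb outside the gene, and the other 5 had theirs inside Kdm6b. PHF6 heights in the same order were 30, 31, 42, 22, 42, 21, 23 and 21. The first 5 overlapped H3K27ac and the last 3, with summits in Dnah2, did not. The third PHF6 peak (chr11:69216771-69225912) was 9142 bp wide, at percentile 99.9 of widths in its list.

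Of the 4 H3K27me3 peaks of Kdm6b, 2 overlapped H3K27ac and 2 lay close to it. The tallest (chr11:69211908-69213127, height 48) spanned the gap between the first and second H3K27ac peaks and overlapped both. A peak of height 21 (chr11:69210456-69211441) lay wholly inside the first H3K27ac peak, with its summit in Tmem88. The other two, of heights 15 (chr11:69215279-69216312) and 16 (chr11:69234234-69234815), ended 172 bp and 98 bp from the nearest H3K27ac edge. All 4 overlapped a PHF6 peak. At a score of 100 or more, 2 of the 4 were left.

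Ep300, which encodes the acetyltransferase p300, had the tallest start of the set on both lists. The PHF6 peak (chr15:81415134-81417487) reached 71 and the H3K27ac peak (chr15:81414726-81418170) 389, with summits 101 bp and 313 bp upstream of the start. There were 3 more PHF6 peaks inside the gene, of heights 22, 30 and 27. The last of these, 63.5 kb downstream and near the 3′ end, overlapped an H3K27ac peak of height 21, and the other two had no acetylation. No H3K27me3 peak lay in the window.

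Crebbp, the gene of the related acetyltransferase CBP, had lower start summits than Ep300 and, unlike it, H3K27me3 peaks inside the gene. Its start peaks reached 43 for PHF6 (chr16:4212600-4215151) and 261 for H3K27ac (chr16:4212377-4215086). A taller pair of 48 and 337 stood at the start of the neighbour Trap1, 3.79 kb past the other end of Crebbp (PHF6 at chr16:4077286-4078443). Near that 3′ end inside the gene, a PHF6 peak of height 31 lay on an H3K27ac peak of height 19. The remaining 4 PHF6 peaks, of heights 23, 20, 23 and 18, had no acetylation.

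Crebbp had 2 H3K27me3 peaks, both inside the gene and on neither PHF6 nor H3K27ac. One of height 31 (chr16:4082743-4083827) ended 239 bp from an H3K27ac edge. The other, of height 12 (chr16:4147583-4148309), was 61475 bp from one and has a score under 100, so 1 peak was left at that score.

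Bmi1, the PRC1 subunit gene, was the only gene with a placed start in the set where all 3 lists met there. Kdm6b has no placed start and was not compared. Among genes with a placed start, 3.59% (562 genes) had an H3K27me3 peak there, and 460 of those 562 (2.94% of genes) had all 3. Most starts with H3K27me3 thus held the other lists too. The PHF6 peak (chr2:18597403-18599985, height 38), the H3K27ac peak (chr2:18597437-18600130, height 325) and the H3K27me3 peak (chr2:18598757-18600289, height 21) overlapped. The acetylation summit was 84 bp downstream of the start, the H3K27me3 summit 587 bp downstream, and the PHF6 summit 813 bp upstream, inside the neighbour Commd3.

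The 29.6 kb window of Bmi1 was the shortest of the set and held other starts. PHF6 heights along it were 47, 38, 19, 44 and 40, and H3K27ac heights were 331, 325, 131 and 305. The pair of 47 and 331 lay at the start of Commd3 and Gm33355, the pair of 44 and 131 at the start of Gm46725, and the pair of 40 and 305 in Spag6. The PHF6 peak of 19, inside Bmi1, had no acetylation. Only 1 H3K27ac peak and 2 PHF6 peaks touch the gene body itself.

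H3K27me3 was densest at Bmi1, with 5 peaks of heights 17, 21, 20, 14 and 21. That is 1.69 per 10 kb, at percentile 99.8 of placed genes. The first (chr2:18592123-18593611) overlapped the peaks at Commd3, and the second is the start peak. The last 3 overlapped no H3K27ac peak and lay 41, 401 and 490 bp from one. Without the flanks 1 of the 5 was left, and with 5 kb flanks 2.

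Kmt2a, the H3K4 methyltransferase gene, had the most PHF6 peaks, 9 in a 98.0 kb window, and no H3K27me3 peak. Its start held a PHF6 peak (chr9:44687827-44691345) of height 54 and a width of 3519 bp, the widest PHF6 peak at a placed start of the set. The H3K27ac peak there (chr9:44686713-44691544) was 4832 bp wide with a height of 312. At the start of the neighbour Tmem25 past the other end of the gene, a PHF6 peak of 41 overlapped an H3K27ac peak of 152. The remaining 7 PHF6 peaks had heights of 17 to 27 and no acetylation.

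One H3K27ac peak of the set had no PHF6 peak. It lies in Kmt2a, 12499 bp downstream of the start by its summit (chr9:44675634-44677330), with a height of 44.

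**Figure D3:**
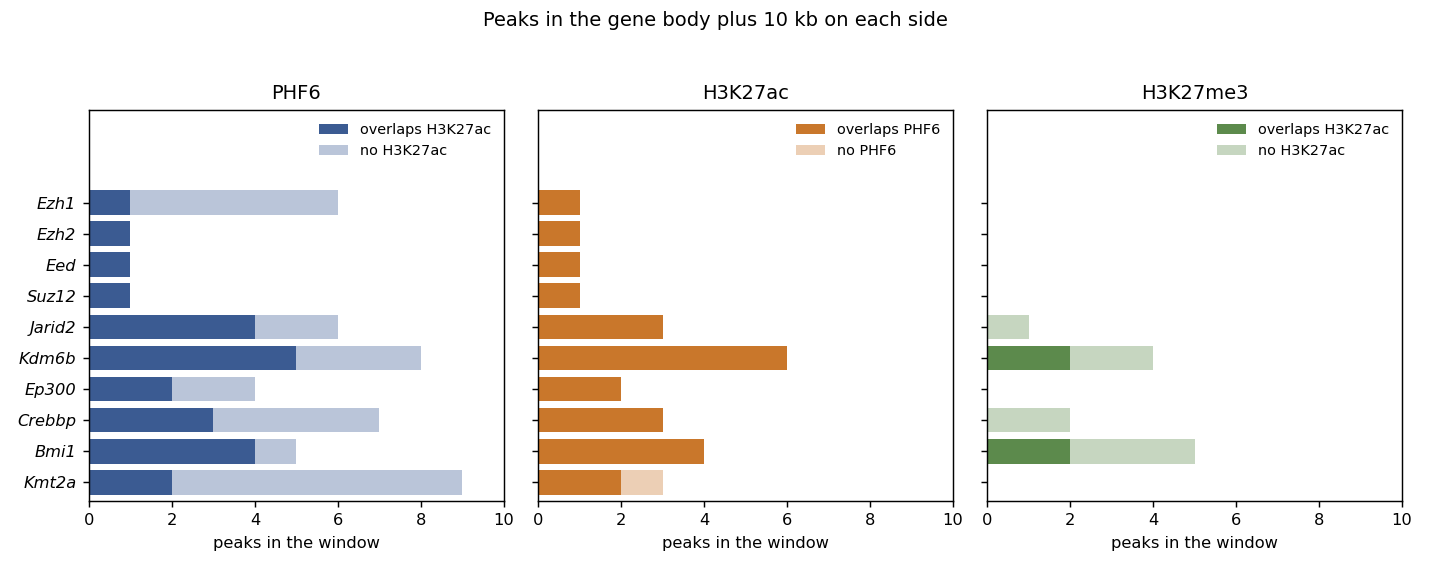
Number of peaks in the window of each gene (horizontal axis), for PHF6, H3K27ac and H3K27me3 from left to right. Dark bars are peaks that overlap H3K27ac (or, in the middle panel, PHF6) by at least 1 bp and pale bars are peaks that do not. PHF6 peaks without acetylation make up 7 of 9 at Kmt2a and 5 of 6 at Ezh1, and H3K27me3 peaks are at 4 genes.

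Seen over all peaks of the set, PHF6 peaks divided evenly, 24 of 48 (50.0%) on H3K27ac, where 30.3% of the whole PHF6 list lay on H3K27ac. Each whole list covers the genome, not gene windows alone, so list values here and below are not a like-for-like base. The 24 with acetylation had heights of 22 to 137 with a median of 40.5, and the 24 without had heights of 15 to 30 with a median of 21. Those height ranges overlap between 22 and 30. The list medians for the same classes were 29 and 20. By place, 9 of 9 PHF6 peaks at the genes' own starts and 4 of 4 at other genes' starts were acetylated, against 10 of 24 elsewhere in gene bodies (Kdm6b included) and 1 of 11 in the flanks.

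In the other direction, 24 of 25 H3K27ac peaks (96.0%) held PHF6, beside 71.7% of that list. The H3K27ac peaks of the set had a median height of 261 against 35 for the list. Of these 25 peaks, 9 lay at the genes' own starts and 4 at other starts, while the list also covers peaks away from genes. The 9 at the genes' own starts had a median of 325, beside 252 over all genes with a start peak. The 10 in gene bodies away from a placed start had a median of 35.5, and 5 of these 10 are in Kdm6b, which has no placed start.

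H3K27me3 peaks overlapped H3K27ac in 4 of 12 cases (33.3%, list 21.0%) and PHF6 in 6 of 12 (50.0%, list 26.0%). The overlap with PHF6 fell to 4 of 12 when 50% of the shorter peak had to be shared. It was also 4 when the H3K27me3 summit had to lie inside the PHF6 peak. A further 6 of the 12 (50.0%) did not overlap H3K27ac but ended within 1 kb of an H3K27ac edge, as 6.23% of the list did. The 2 farther away were in Jarid2 and Crebbp. All 6 belong to 3 windows with 2 or more tall H3K27ac peaks (Kdm6b, Crebbp and Bmi1), and peaks of 1 window are not independent. The H3K27ac peaks they lay nearest to were not all tall. Those had heights of 24 and 200 at Kdm6b, 19 at Crebbp, and 131 and 305 at Bmi1. All 4 genes with H3K27me3 also had H3K27ac in the window, as 19.3% of placed genes did, out of the 21.4% with H3K27me3.

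The other genes of these complexes gave a similar picture at their starts. Of 56 further genes of PRC2, PRC1, H3K27 demethylases, class I deacetylases, acetyltransferases and COMPASS (the H3K4 methyltransferase complexes), 50 were placed and 40 had a start. Kdm6a, Uty, Hdac2, Hdac3, Kat6a and Ash2l could not be placed. A PHF6 peak lay at 37 of the 40 starts, an H3K27ac peak at 39, a tall H3K27ac peak at 35 and an H3K27me3 peak at 1. Over all genes with a placed start the shares were 68.1%, 62.4%, 38.6% and 3.59%. The median start heights were 39 for PHF6 and 310.5 for H3K27ac, close to the 43 and 325 of the set.

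**Figure D4:**
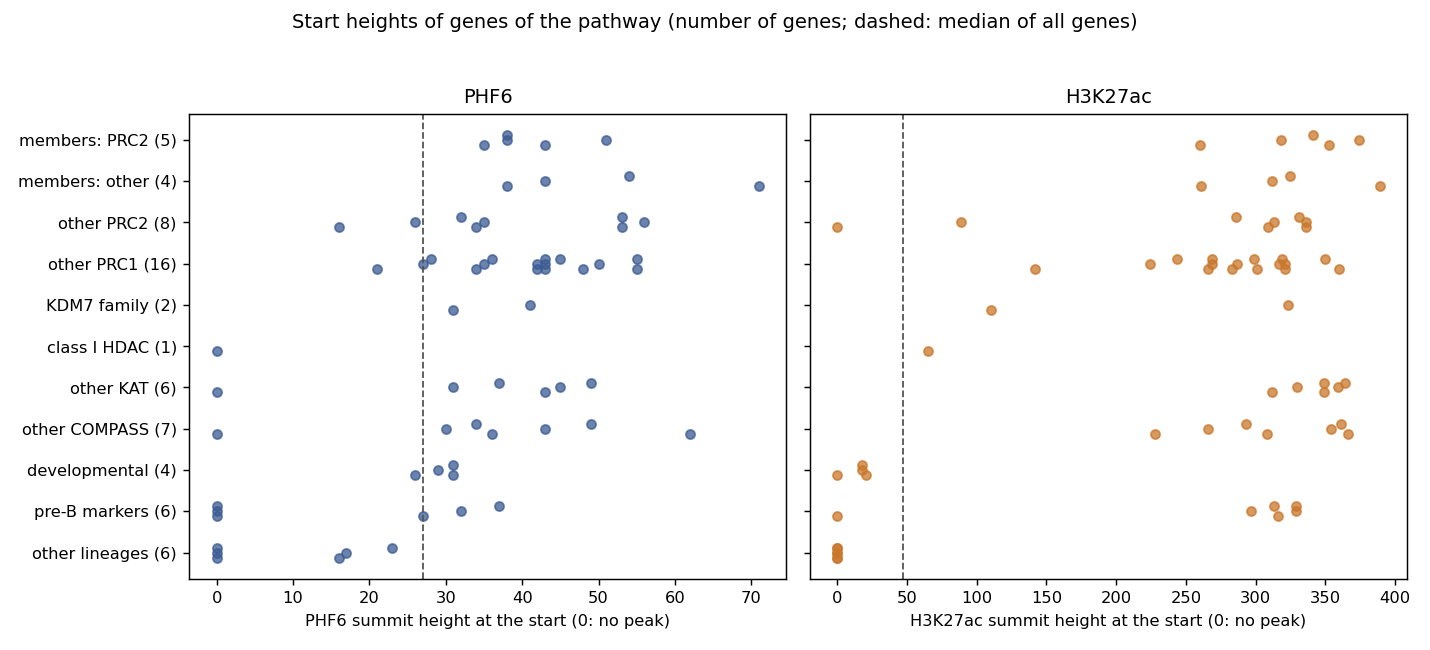
Height of the tallest summit at the start (horizontal axis, deposited pileup, 0 where there is no peak) for PHF6 on the left and H3K27ac on the right, 1 point per gene, with the number of genes with a start in brackets. The dashed lines are the medians over all 15662 genes, 27 and 47.5. Genes of the chromatin complexes lie mostly to the right of the lines, while the 6 genes of other lineages have no H3K27ac at the start.

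The start without H3K27ac belonged to Ezhip, a gene whose product inhibits PRC2, which had a PHF6 peak of height 16. The starts without PHF6 were those of Hdac8, a deacetylase, Kat7, an acetyltransferase, and Rbbp5, a COMPASS subunit. Kat7 lacked PHF6 at its start, where the H3K27ac summit reached 359, and had 3 PHF6 peaks elsewhere in its window, the tallest 24. The start with H3K27me3 was that of Kdm7a, a demethylase, with a height of 14 beside an H3K27ac height of 110.

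By group, the tallest H3K27ac summits in the window were 336 at Phf19 and Rbbp4 (PRC2 partners), 374 at Ring1 and 360 at Scmh1 (PRC1), and 364 at Kat2a and 359 at Kat7 (acetyltransferases). COMPASS had 374 at Setd1b and 366 at Kmt2d, both catalytic subunits. Of the KDM7 demethylases Phf8 reached 323 and Kdm7a 110, and of the deacetylases Hdac1 reached 287 and Hdac8 65.

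H3K27me3 peaks lay in the windows of 13 of the 50 genes, beside 21.4% of all placed genes. The PRC2 group had Ezhip and Rbbp7, and the PRC1 group had Pcgf1, Rybp, Phc1, Cbx2, Cbx8 and Cbx7. The other 5 were Kdm7a, Hdac1, Setd1b, Setd1a and Kmt2d. Their tallest H3K27me3 summits ranged from 10 at Setd1a to 38 at Kmt2d, all below the 48 of Kdm6b.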

How the data were processed

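Per the labels' protocols, crosslinked chromatin of preB-ALL cells was sheared, and size-selected Illumina libraries were sequenced as single reads. Bowtie2, SAMtools and MACS 1.4.0 with build mm9 are named in the submitters' processing notes, without options. The list names give a threshold of 1e-6 and mark the PHF6 and H3K27ac lists, not the H3K27me3 list, as called without local background, so list lengths are not comparable. Whether the input served as control is not stated in the sources used here. The authors deposited a score for each peak (lowest 60) and a signal for each summit, a whole-number pileup height of at most 400 (summit height). No read totals are in the lists, so depth is unknown.

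RefSeq GRCm38.p6 genes were moved to mm9 by the offset at which most starts within 2 Mb had an H3K27ac summit of 200 or more within 500 bp. On simulated summits 19171 of 21631 genes were placed, 98.8% within 500 bp. The simulated offsets were all under 2 Mb, so an offset as large as that of Eed (7148682 bp) was not simulated. Peaks overlapped at 1 bp or more. No p-value was computed, since each antibody had 1 library. Alternatives changed flank, score, overlap, start distance and offset, and 2 were added after seeing the data (own starts left out, PHF6 summits of 35 or more). The members and lists were chosen with earlier results of these data known. All members are named, as are the other pathway genes with H3K27me3, without H3K27ac at the start, or with the 2 tallest H3K27ac summits of a list. The genes without PHF6 at the start were named after their values were seen. Python 3.11.15, numpy 2.4.6, pandas 2.3.3 and matplotlib 3.10.9 were used.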

Additional observations from a re-analysis of the deposited data

How the results depend on the processing

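Of the summary values under alternatives, 68 stayed within 1.5 times (counts) or within the binomial interval (shares) and 14 moved. Shares of all genes with a peak at the start moved with the distance allowed: within 500 bp they were 66.7% for PHF6, 61.4% for H3K27ac and 2.8% for H3K27me3, and within 2 kb 69.9%, 63.6% and 4.94%. With a score of 100 or more the start shares were 60.8%, 58.7% and 2.53%, and the window shares 76.9%, 70.5% and 14.4%. Without flanks the set held 6 H3K27me3 peaks in place of 12. Asking that 50% of the shorter peak be shared left 2 H3K27me3 peaks on H3K27ac in place of 4. Of the counts per gene, 250 stayed within 1.5 times, though not always equal, and 17 moved further. Of those 17, 6 came from 20 kb flanks, 6 from no flanks, 4 from the score of 100 or more and 1 from 5 kb flanks. With other windows for the offset, or own starts left out, the 10 genes kept their counts, except that Jarid2 could not be placed from starts within 1 Mb. PHF6 summits of 35 or more placed 9 genes within 398 bp (not Eed), and PHF6 summits of 60 or more placed only Ezh1. The lists give no depth, so a gene without a peak had none detectable at an unknown depth. No paired analysis was possible because only 1 library was made with each antibody.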
